A study of Mus musculus with 2 samples.

Results

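The mitochondrial ribosomal protein genes of mouse were followed in CD4 T cells that had met antigen either beside anergic T cells or without them. They were taken by name, as every noncontrol array probe whose gene name is Mrpl or Mrps followed by a digit, a name rule that uses no measured value, although the set was picked for study with earlier results of these data known. This gave 76 of the 27665 named genes, 47 named for the large subunit (Mrpl) and 29 for the small subunit (Mrps), on 106 of the 55681 noncontrol probes. All 76 genes had a probe well above background on both arrays, so no gene was lost to a filter on dim signal, and 104 of the 106 probes passed. The genes lie on 17 chromosomes.

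The co-culture combined naive spleen cells with an equal number of spleen cells that had first been stimulated with the bacterial superantigen TSST-1 at 0.1 μg/mL. The labels call these added cells anergic, meaning poorly responsive to antigen. The naive-only culture held no pre-stimulated cells, and its naive cells were at a higher density than those in the co-culture, so the added cells and the naive cell density cannot be told apart. All spleens came from female OVA-TCR-Tg mice, whose T cells carry a transgenic receptor for ovalbumin (OVA), and both cultures were given OVA (0.1 mg/mL) for 24 h before CD4 T cells were sorted. The labels do not state whether the sort separated the added pre-stimulated cells from the naive ones, nor how many mice were pooled. RNA of each culture was hybridised to 1 single-colour Agilent array. No difference reported here therefore has a replicate, no test between the cultures was possible and no p-value is given.

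Mitochondria hold their own ribosome, which translates the few membrane proteins of the respiratory chain and ATP synthase that mitochondrial DNA encodes. Its RNAs are made inside the organelle, whereas every one of its proteins is encoded in the nucleus, made in the cytosol and imported. Some of these proteins descend from bacterial ribosomal proteins, and others have no bacterial counterpart and were added during evolution. Activated T cells are known to enlarge their mitochondria and to raise mitochondrial translation as they prepare to divide.

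The share of noncontrol probes well above background was 45.1% in co-culture and 46.2% in naive-only cells. T cell markers were well above background in both cultures, with a summed signal over 7 genes of 235254 intensity units on the co-culture array and 226694 on the naive-only array. Single markers differed both ways: the log2 difference, co-culture minus naive-only as throughout, was 0.90 for Cd3d and for Cd3g, 0.37 for Cd3e, 0.35 for Cd4 and 0.25 for Lck, but -0.71 for Cd28 and -0.92 for Cd5. Markers of B cells differed between the cultures. In co-culture 8 of the 10 were above background, and in naive-only cells all 10 were, and their summed signal was 2636 in co-culture and 11957 in naive-only cells. Among them Cd79a differed by -1.76 and Ms4a1 by -5.03. The 4 genes of class II antigen presentation summed to 13177 in co-culture and 60249 in naive-only cells, with Cd74 at -2.79. Dendritic cell markers summed to 156 in co-culture and 1747 in naive-only cells, and NK cell markers to 204.7 in co-culture and 602.3 in naive-only cells. Of the 3 NK cell markers only 1, Tyrobp (-1.50), was above background on both arrays. Macrophage markers summed to 4902 in co-culture and 4690.0 in naive-only cells, yet 5 of the 6 were below 0, with a median of -0.25, Cd14 at -1.71 and Itgam, the exception, at 0.37. CD8 T cell markers summed to 193.3 in co-culture and 230.5 in naive-only cells. The part of these other cells in the results that follow was not tested, and fewer cells of a type cannot be told from less RNA per cell.

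The mitochondrial ribosomal protein genes were slightly lower, as a body, on the co-culture array. Their median log2 difference was -0.32, which is 1.25-fold lower, with an interquartile range of -0.55 to -0.18. Over all 14378 named genes measured on both arrays the median was -0.05 and the interquartile range -0.37 to 0.33. The difference was below 0 for 69 of the 76 genes (90.8%), against 54.4% of all measured genes, and this count lay between 65 and 69 under every alternative that kept all 76 genes. Bright genes had a larger share below 0, up to 66.4% in the brightness ranges given further below. In the related gene lists described below it ran from 55.6% for the nuclear regulators to 100% for ribosome biogenesis. Of the 81 cytosolic ribosomal proteins 92.6% were below 0, so a share this high was not particular to the members. The members were also close to each other, with an SD of 0.28 between genes against 0.81 over all genes. Among the lists described below, mitochondrial translation factors had an SD of 0.63. Mitoribosome assembly factors (0.28) and the respiratory chain and ATP synthase (0.30) were about as close as the members, so closeness was not particular to these. The members' interquartile width was 0.37, against 0.69 over all genes. It was 0.59 over the 2079 genes with a mean log2 signal of 4 to 6 above the array's 75th percentile. That range holds 41 members.

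None of these differences was large. No member was 2-fold lower, a size reached by 5.54% of all measured genes, and no member was 2-fold higher, a size reached by 7.72%. At 1.5-fold, 16 of 76 (21.1%) were lower against 14.5% of all genes, and 0 were higher against 15.2%. The 1.5-fold count did not stand apart from its background under other scalings: with each array centred on its median it was 10 of 76 (13.2%) against 12.7% of all genes, and with quantile normalization 10 of 76 against 13.6%. The technical error of a difference, from the scanner software's error model, was 0.20 to 0.21 for each member and leaves out all variation between cultures. The difference was larger than that error in 56 members, of which 53 were lower and 3 higher, while 35.6% of all genes were lower by more than their error and 30.4% higher.

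**Figure D1:**
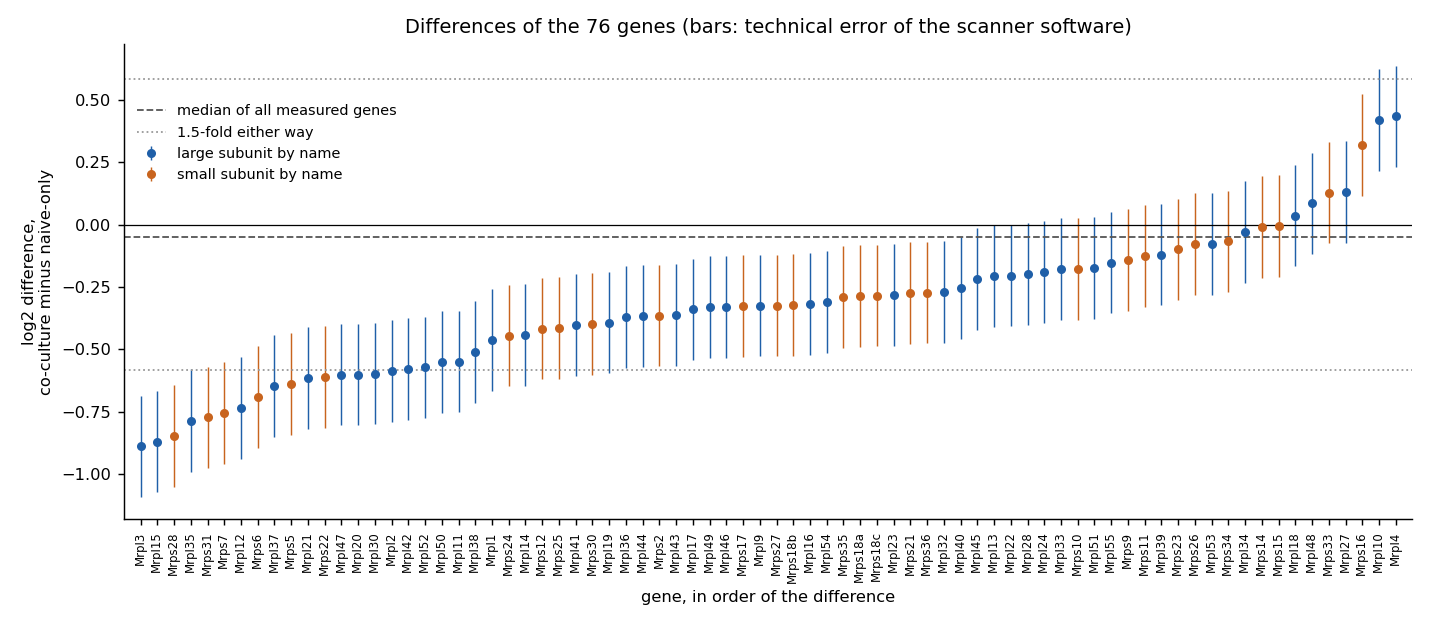
Log2 difference (co-culture minus naive-only) of the 76 mitochondrial ribosomal protein genes in order, coloured by the subunit in the gene's name, 1 array per culture. Bars are the technical error from the scanner software; the dashed line is the median of all measured genes (-0.05) and the dotted lines mark 1.5-fold either way. Most points lie between -0.89 and 0, and 7 lie above 0.

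Levels are given below as log2 of the signal above the array's 75th percentile, which was 301.3 intensity units on the co-culture array and 299.4 on the naive-only array. Brightness also depends on the probe, so a level is compared only with the same probe's level on the other array. Among large-subunit genes, Mrpl3, whose protein belongs to the conserved core at the peptidyl transferase centre, had the lowest difference. Its level was 5.004 in co-culture and 5.893 in naive-only cells, a log2 difference of -0.89 or 1.85-fold lower. Mrpl15, another core protein with a bacterial counterpart, was at 4.70 in co-culture and 5.57 in naive-only cells, a difference of -0.87. Mrpl35 was at -0.02 in co-culture and 0.77 in naive-only cells (difference -0.79). These 3 genes differed by nearly the same amount.

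Mrpl12 encodes the protein of the flexible stalk that recruits translation factors, and it has also been described as a partner of the mitochondrial RNA polymerase. Its level was 6.61 in co-culture and 7.35 in naive-only cells, a difference of -0.73. The other stalk genes had other values. Mrpl10, whose protein anchors Mrpl12 to the ribosome, was at 3.616 in co-culture and 3.196 in naive-only cells, a difference of 0.42, and Mrpl11, at the base of the same stalk, had a difference of -0.55. So the gene of the anchor was higher and the genes of the parts around it were lower.

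Mrpl4 had the highest difference of all members. Its protein is a core protein that lines part of the exit tunnel in bacterial ribosomes. The level was 6.56 in co-culture and 6.13 in naive-only cells, a difference of 0.43 or 1.35-fold higher. Mrpl27 had a difference of 0.13, Mrpl48 of 0.09 and Mrpl18 of 0.04, all within the technical error. The other 42 large-subunit genes were below 0 at the main scaling.

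Several large-subunit proteins have a role of their own. Mrpl45, which holds the ribosome to the inner membrane at the tunnel exit, had a difference of -0.22. Mrpl44, which resembles a double-stranded RNA nuclease, was at -0.37, and Mrpl41, which has also been linked to cell death, at -0.40. Mrpl1, of the mobile L1 stalk that releases spent tRNA, was at -0.46, and Mrpl28 at -0.20. Mrpl37, Mrpl20 and Mrpl52 were at -0.65, -0.60 and -0.57, and Mrpl33 at -0.18. None of these reached 2-fold, and Mrpl37 and Mrpl20 passed 1.5-fold.

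The bounds of the 1.5-fold count were close on both sides. Mrpl2, the member just inside, differed by -0.59, and Mrpl42, just outside, by -0.58. They lie apart by far less than the technical error of 0.20.

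In the small subunit, Mrps28 had the lowest difference, with a level of 5.28 in co-culture and 6.13 in naive-only cells, a log2 difference of -0.85 or 1.80-fold lower. Mrps31, without a bacterial counterpart, was at 4.11 in co-culture and 4.88 in naive-only cells (difference -0.77). Mrps7, a protein that binds the head of the small-subunit RNA, was at 5.72 in co-culture and 6.48 in naive-only cells (difference -0.76). Mrps6 and Mrps5 followed with differences of -0.69 and -0.64, and Mrps22, mutated in inherited mitochondrial disease in humans, with -0.61. These were the 6 small-subunit genes past 1.5-fold.

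Mrps16 stood at the other end. Its level was 6.24 in co-culture and 5.92 in naive-only cells, a difference of 0.32 or 1.25-fold higher. Mrps33 had a difference of 0.13. Mrps15 and Mrps14 were at -0.01 each, with a sign that turned under other scalings, where Mrps15 reached 0.07 and Mrps14 reached 0.09. Mrps26 differed by -0.08.

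Between these ends lay Mrps12, of the decoding centre, at -0.42, Mrps30 at -0.40, Mrps27, an RNA-binding protein of the pentatricopeptide family, at -0.32 and Mrps36 at -0.27. Mrps36 carries a ribosomal name but is now known as part of an oxoglutarate dehydrogenase complex. The 3 mammalian relatives of the bacterial protein S18, of which Mrps18a and Mrps18b are counted below as mitochondria-specific extra copies, were close together, with Mrps18a at -0.29, Mrps18b at -0.32 and Mrps18c at -0.28. Structures place Mrps18a and Mrps30 in the large subunit.

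**Figure D2:**
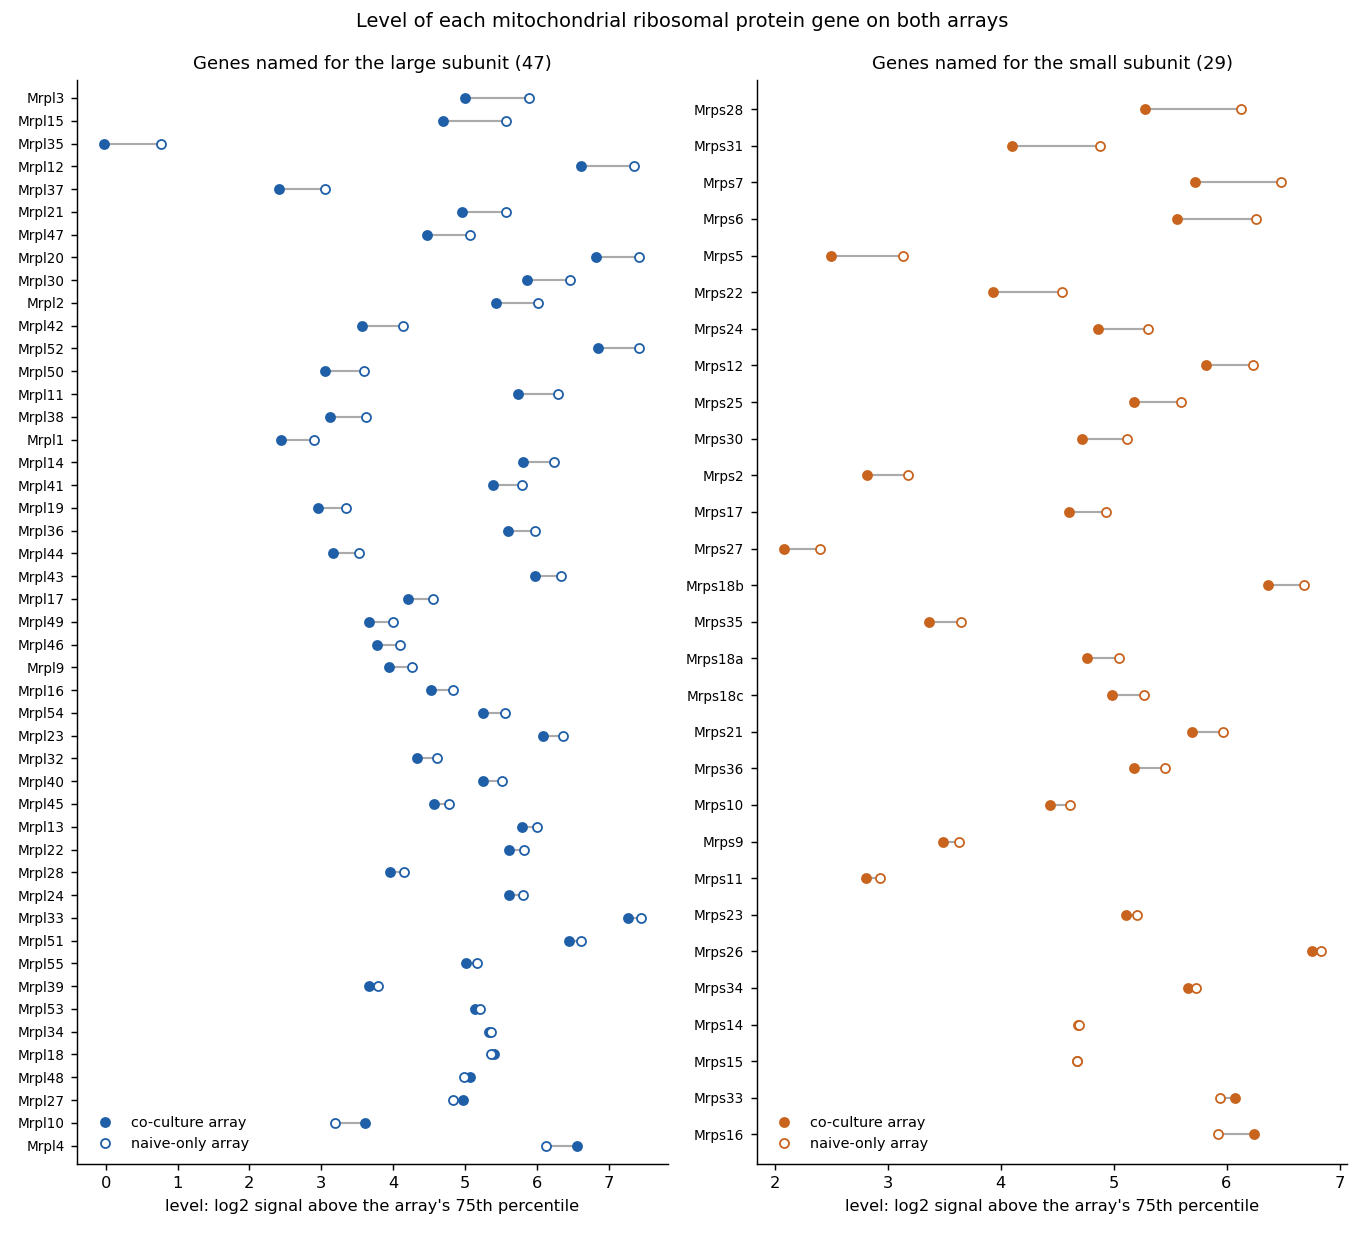
Level on the co-culture array (filled) and the naive-only array (open) of each gene named for the large (left) and small (right) subunit, as log2 signal above the array's 75th percentile, ordered from the lowest difference at the top. Open points lie to the right of filled ones for all but 7 genes, among them Mrpl4, Mrpl10 and Mrps16.

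The subunits did not differ much from each other. The median difference was -0.33 over the 47 large-subunit genes, of which 10 were at least 1.5-fold lower, and -0.29 over the 29 small-subunit genes, of which 6 were. Moving Mrps18a and Mrps30 to the large subunit, 20.4% of large-subunit and 22.2% of small-subunit genes were 1.5-fold lower. The 45 members with a bacterial counterpart had a median of -0.33 and the 30 mitochondria-specific members a median of -0.32, with Mrps36 left apart. The bacterial-type members were more spread, with an SD of 0.32 between genes against 0.22. Of them 13 of 45 were 1.5-fold lower, against 3 of 30 of the mitochondria-specific members and 14.5% of all genes. With quantile normalization the counts were 8 of 45 and 2 of 30, against 13.6% of all genes. Both the lowest 4 and the highest 3 members were of bacterial type. The sorting of genes into these classes is textbook knowledge, and the difference between the classes was not tested.

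Many members have more than 1 probe, so the values of a gene's probes can be set side by side. In 24 genes at least 2 probes were measured on both arrays, and in 23 of them all probes had differences of the same sign. The exception was Mrpl27, at 0.13 and -0.09. Since 94 of all 104 measured member probes were below 0, probes of different genes would mostly share a sign too. The count of shared signs therefore cannot tell a value of the gene from a value of the probe. The median gap between a gene's brightest probe and its next was 0.10, and 17 of 24 gaps were under 0.2. In 4 genes a pair of probes shares bases. Those of Mrpl23, Mrpl40 and Mrps18b share 52 to 55 bases and are not separate measurements, while those of Mrps7 share only 1 base. The counts of 23 and 17 genes include all 4. Across the 24 genes the paired differences correlated with r = 0.67 and rho = 0.76, given as a description, since all come from the same pair of arrays.

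Of the 7 members above 0, only 4 have a second measured probe, and Mrps16 has none. Mrpl4 had 0.43 and 0.52 on its probes, Mrpl10 had 0.42 and 0.29 and Mrps33 had 0.13 and 0.02, while Mrpl27 changed sign as given. At the low end, Mrpl15 had -0.87 and -1.41 and Mrps7 had -0.76 and -0.81. Mrps26 had -0.08 on both probes, and Mrps36 had -0.27 on both. Probes of Mrpl9 and Mrps14 were more than 1 log2 unit apart, in each case through a dim probe. For Mrpl9 the bright probe gave -0.32 and the dim one, with levels of -2.87 in co-culture and -0.62 in naive-only cells, gave -2.25. Mrps14 had -0.01, -0.13 and -1.23 on its 3 probes, and Mrpl47 had -0.60, -0.76, -1.13 and -0.30 on its 4.

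The probes below gave high values, or values that differed between the probes of a gene. Each is a 60-base probe on mm9, of which the first 30 bases are given 5′ to 3′ as the array file lists them, with no letters marked. Exon and UTR annotation of mm9 was not used here. The probes of Mrpl4 lie at chr9:20813220-20813279 and chr9:20812990-20813049 on the plus strand, and those of Mrpl10 at chr11:96910057-96910116 and chr11:96909769-96909828 on the plus strand. The bright Mrpl9 probe lies at chr3:94252112-94252171 and the dim one, listed under another transcript, at chr3:94254157-94254216, both on the plus strand. The bright Mrpl15 probe spans a splice junction, chr1:4766862-4767644 on the minus strand, and the other lies at chr1:4764533-4764592.
Mrpl4, difference 0.43: gtgcctgcctgggatctcttttgtcacatt
Mrpl4, difference 0.52: ttccgtcgccttcctggaggacaagctact
Mrpl10, difference 0.42: cttgtgccaagcactctacagacacagatg
Mrpl10, difference 0.29: attcacaatgacctccttggggacaggcct
Mrpl9, difference -0.32: cctagccactattctgacagttgttttatt
Mrpl9, difference -2.25: ttgatcctgtgtggttttcaacagccacaa
Mrpl15, difference -0.87: gtgttgttactacagccttctatgacccaa
Mrpl15, difference -1.41: ttgatgcactcttctgacttccatggattt

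Repeated spots give the noise within an array. The probes of Mrpl34, Mrps35 and Mrpl50 were each printed in 10 spots. Mrpl50 averaged 3.05 ± 0.048 on the co-culture array and 3.60 ± 0.064 on the naive-only array (SD over 10 spots), and the spots of the arrays did not overlap, with 2.97 to 3.12 in co-culture and 3.50 to 3.70 in naive-only cells. Mrps35 averaged 3.37 ± 0.050 in co-culture and 3.65 ± 0.047 in naive-only cells, again without overlap. Mrpl34, in contrast, averaged 5.33 ± 0.041 in co-culture and 5.36 ± 0.052 in naive-only cells, and its spots overlapped. Spots on 1 array share the RNA, so these SDs measure printing and scanning only.

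Some members have pseudogenes that RefSeq lists, namely Mrpl23, Mrpl27, Mrpl48 and Mrps36, and whether their probes also bind those transcripts was not examined.

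The members are bright genes, and bright genes as a whole lay slightly below 0. The probes that stood for the members had mean levels over both arrays of 0.37 (Mrpl35) to 7.36 (Mrpl33). Some second probes were far dimmer, such as those of Mrpl9 at -1.75 and Mrpl41 at -2.67. Within each level range with at least 5 members, the members' median was below that of all genes. Between levels 3 and 4 it was -0.35 over 12 members, against -0.08 over 1528 genes. Between 4 and 5 it was -0.30 over 16 members, against -0.12 over 1222 genes, and between 5 and 6 it was -0.27 over 25 members, against -0.17 over 857 genes. Between 6 and 7 it was -0.34 over 14 members, against -0.17 over 541 genes, and between 2 and 3 it was -0.46 over 5 members, against -0.03 over 1660 genes. So the gap between members and all genes of like brightness, members included, was 0.10 to 0.43 log2 units. The smallest gap was in the range with 25 members and the largest in that with 5. The share of all genes below 0 was 52.7% at levels of 2 to 3, 57.3% at 3 to 4 and 60.5% at 4 to 5. It was 66.4% at 5 to 6 and at 6 to 7. Of the members, 5 of 5, 11 of 12, 15 of 16, 23 of 25 and 11 of 14 were below 0 in these ranges. Among the members, level and difference were nearly unrelated (r = 0.09 over 76 genes of the same arrays).

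**Figure D3:**
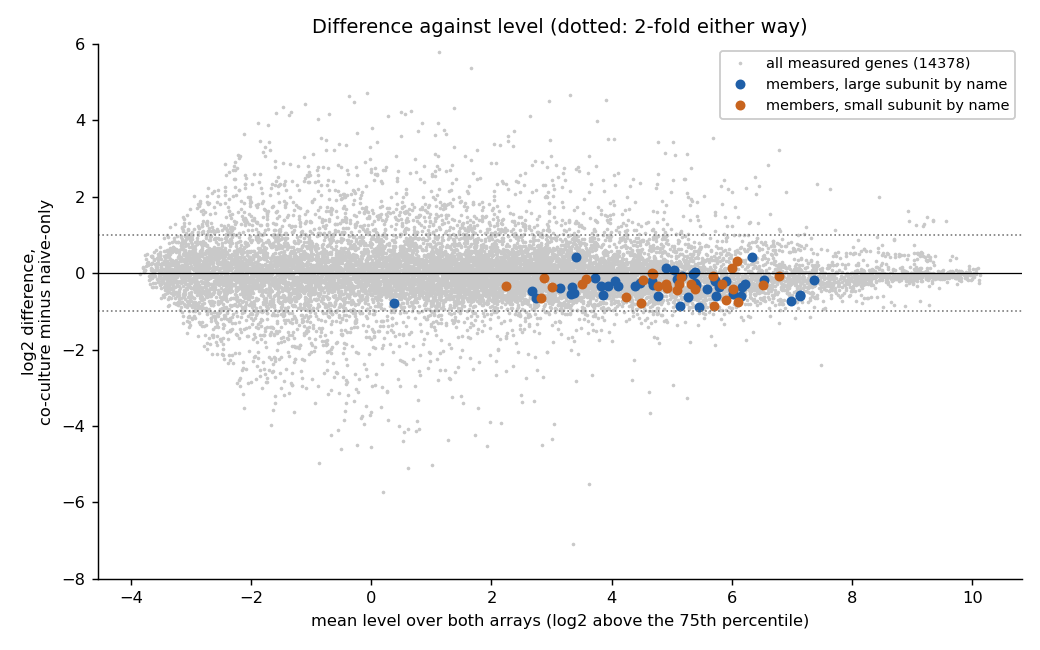
Log2 difference (co-culture minus naive-only) against mean level over both arrays for the 14378 measured genes (grey) and the 76 members (coloured by subunit). Dotted lines mark 2-fold either way; every member lies between them, and the members sit below the middle of the grey cloud at levels of 2 to 7.

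Proteins of the same ribosome that carry other names had a similar median. The 7 measured were Dap3, Ptcd3, Chchd1, Aurkaip1, Gadd45gip1, Mrpl57 and Mrpl58, the last pair under older names in the array files. Their median difference was -0.32. Ptcd3 was the lowest at -0.38. Dap3, a small-subunit GTPase first described for its role in cell death, was the highest at 0.04, with levels of 6.46 in co-culture and 6.42 in naive-only cells. No gene of this list passed 1.5-fold.

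Factors that act with the mitochondrial ribosome were more mixed. The 12 translation factors had a median of -0.09. Of them 3 (25%) were at least 1.5-fold lower, against 14.5% of all genes, and 1 (8.33%) at least 1.5-fold higher, against 15.2%. Tufm, the elongation factor that brings tRNA to the ribosome, was at 5.9997 in co-culture and 6.7093 in naive-only cells, a difference of -0.71. Mrrf, which recycles ribosomes after termination, had the lowest difference at -1.54, on a dim probe with levels of -3.17 in co-culture and -1.63 in naive-only cells. Mtrf1, of the release factor family, had the highest at 0.93, with levels of 1.04 in co-culture and 0.12 in naive-only cells. The genes of this list thus lay on both sides of 0.

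Of the 22 factors for ribosome assembly and ribosomal RNA, 21 were measured on both arrays, with a median of -0.23. At least 1.5-fold lower were 3 of them (14.3%), much the same share as the 14.5% of all genes. Mterf3, which acts in assembly of the large subunit, had the lowest difference at -0.75, and Rpusd4, a pseudouridine synthase for mitochondrial RNA, the highest at 0.19. Lrpprc, which stabilises mitochondrial mRNAs, was at -0.57. The 19 measured mitochondrial tRNA synthetases and related enzymes, of 20, had a median of -0.22, with Wars2 the lowest at -0.72.

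The 10 genes of mitochondrial DNA copying and transcription had a median of -0.21. Polrmt, the mitochondrial RNA polymerase, had the lowest difference, with levels of 2.46 in co-culture and 3.10 in naive-only cells (-0.63). Tfam, which packs mitochondrial DNA and starts its transcription, was at -0.28, and Polg2 was the highest at 0.18. The products of that polymerase were looked at as well, as a list added after the data had been seen. The 13 mRNAs that mitochondrial DNA encodes had a median of -0.35. Of them 11 (84.6%) were below 0, against 54.4% of all measured genes. The share below 0 was 66.4% over all genes at levels of 5 to 6 and at 6 to 7. COX1 and COX2 were at 0.01 and -0.01, the genes ND1, ND2, ND3, ND4, ND4L and ND5 lay between -0.55 and -0.35, and ND6, the only one of these mRNAs made from the other strand, was at 1.51. The labels do not state whether the labelled cDNA keeps the strand of the RNA.

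Among nuclear regulators of mitochondrial genes, Myc, a transcription factor induced by T cell activation, had the lowest difference, with levels of 5.17 in co-culture and 5.88 in naive-only cells (-0.71). The coactivators Ppargc1b and Pprc1 were at -0.62 and -0.59. Nrf1, an activator of many nuclear genes for mitochondrial proteins, had the highest difference at 0.26, and Gabpa, of the ETS family, was at -0.20. The median over the 9 measured of 10 was -0.11.

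Other ribosomal gene groups had other medians. The 30 genes of ribosome biogenesis, which build the cytosolic ribosome in the nucleolus, were all below 0, with a median of -0.83. Of them 23 (76.7%) were at least 1.5-fold lower and 7 (23.3%) at least 2-fold lower, against 14.5% and 5.54% of all genes. Pes1 was the lowest, with levels of 1.287 in co-culture and 3.005 in naive-only cells (-1.72), and Npm1 the highest at -0.32. The 81 cytosolic ribosomal proteins had a median of -0.08, and 75 of them (92.6%) were below 0. None passed 1.5-fold, and they ran from Rps7 at -0.32 to Rpl39 at 0.16. Their probes were much brighter, 79 of the 81 having a level of 8 or more, where differences were mostly narrow: the interquartile width over the 562 genes at that brightness was 0.16, though Ncl and Nhp2 of the biogenesis list, also that bright, were at -0.66 and -0.74. The width was 0.59 over 2079 genes at levels of 4 to 6, where 41 members lie. The spread of the cytosolic list was therefore not read against that of the members.

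The nuclear-encoded subunits and assembly factors of the respiratory chain and ATP synthase, 89 measured of 93, had a median of -0.14. Of them 5 (5.62%) were at least 1.5-fold lower and 2 (2.25%) at least 1.5-fold higher, below the 14.5% and 15.2% of all genes. The list ran from Ndufaf4, an assembly factor of complex I, at -1.18 to Ndufv3, a subunit of complex I, at 0.80. The median of the mitochondrial ribosomal proteins thus lay below that of the respiratory chain and above that of ribosome biogenesis, a description without a test.

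**Figure D4:**
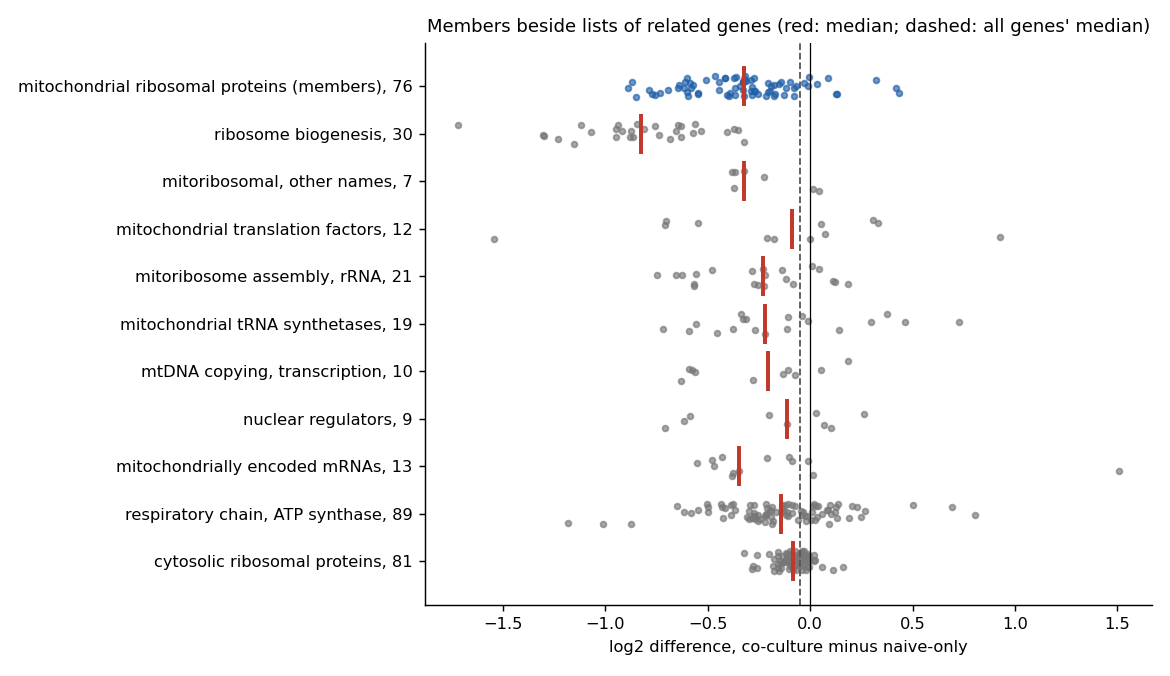
Log2 difference (co-culture minus naive-only) of each measured gene in the member set (blue) and in 10 lists of related genes (grey), with each list's number of genes after its name. Red bars are medians and the dashed line the median of all measured genes; the members' median is -0.32, that of ribosome biogenesis -0.83 and that of the cytosolic ribosomal proteins -0.08.

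Nuclear genes for mitochondrial proteins often have promoters with sites for NRF1, ETS factors such as GABPA, or YY1, and MYC binds E-boxes. The 250 bases before the gene start were searched on both strands, in RefSeq promoters of GRCm38.p6, for 67 of the 76 members. The NRF1 letters GCGCATGC, which read GCATGCGC on the other strand, occurred in 8 members (11.9%) and in 2.56% of the 27025 genes with a promoter. The ETS letters CCGGAAG occurred in 17 members (25.4%) and in 7.83% of all genes, and the YY1 letters AAGATGGC in 4 (5.97%) and in 1.83%. The E-box CACGTG occurred in 5 (7.46%) and in 6.86%. The 27025 genes were not limited to measured genes nor matched to the members for brightness. Whether other bright genes have like shares was not tested. No pair of these motifs overlaps within its letters in the sequences printed here, and 29 members held at least 1 of them.

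Members with and without these letters were set side by side. The median difference was -0.24 with the NRF1 letters and -0.33 without, -0.20 with the ETS letters and -0.35 without, and -0.32 with the YY1 letters and -0.32 without. It was -0.59 over the 5 members with an E-box, namely Mrpl2, Mrpl20, Mrpl36, Mrpl37 and Mrps18c, which ran from -0.65 to -0.28, and -0.32 without. With so few genes these are descriptions, and a match is not a binding site. Mrpl10, the second highest member, holds NRF1 letters, Mrpl3, the lowest, holds ETS letters, and Mrpl22, at -0.20 and picked for this after its sequence was seen, holds both. Their promoters are printed with the matches in capitals, 5′ to 3′ on the gene's strand. They are Mrpl10 at chr11:97041332-97041581, Mrpl22 at chr11:58171414-58171663 and Mrpl3 at chr9:105053018-105053267 of GRCm38.p6, all on the plus strand.
Mrpl10: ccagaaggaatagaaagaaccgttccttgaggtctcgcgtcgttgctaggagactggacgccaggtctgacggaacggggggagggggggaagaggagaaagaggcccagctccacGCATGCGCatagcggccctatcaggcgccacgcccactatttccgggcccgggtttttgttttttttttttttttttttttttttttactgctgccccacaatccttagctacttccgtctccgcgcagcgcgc
Mrpl22: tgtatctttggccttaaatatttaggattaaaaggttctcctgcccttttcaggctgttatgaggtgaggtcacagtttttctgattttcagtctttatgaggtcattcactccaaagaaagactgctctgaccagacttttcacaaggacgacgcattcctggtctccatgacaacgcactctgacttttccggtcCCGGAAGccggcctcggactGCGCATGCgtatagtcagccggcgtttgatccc
Mrpl3: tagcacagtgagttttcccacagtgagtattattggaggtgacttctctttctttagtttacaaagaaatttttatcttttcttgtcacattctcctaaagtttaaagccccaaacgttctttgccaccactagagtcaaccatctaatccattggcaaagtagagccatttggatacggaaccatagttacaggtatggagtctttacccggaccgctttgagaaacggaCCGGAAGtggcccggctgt

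In Mrpl10 the NRF1 letters begin 134 bases before the start. In Mrpl22 the NRF1 letters begin 33 bases and the ETS letters 53 bases before it, and in Mrpl3 the ETS letters begin 19 bases before it.

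Several members start head to head with another gene, the start sites lying within 500 bases on opposite strands. This comparison was added after the data had been seen. There were 19 such pairs with both genes measured, 1 of them between the members Mrpl46 (-0.33) and Mrps11 (-0.13), whose starts are 42 bases apart. In the 18 pairs with a gene outside the set, the member had the lower difference in 15. Of all 76 members 86.8% lay below the median of all genes, so this count was not read as particular to these pairs. The members' median was -0.43 and that of their neighbours -0.07, with 14 of the 18 neighbours below 0, against 54.4% of all measured genes. Brightness was not matched: neighbours such as Klc4, Zfp189 and Cyb5rl were dim, while Fau and Psma2 were bright. All genes at levels of 0 to 2 had a median of 0.004.

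Mrps12 was at -0.42, and Sars2, the mitochondrial seryl-tRNA synthetase that starts 147 bases away, was at 0.30. Mrpl21 was at -0.61 and its neighbour Ighmbp2, a helicase, at 0.33. Mrps7 was at -0.76 and Gga3, a sorting adaptor of the Golgi, at -0.07. Mrpl43 was at -0.36 and Twnk, the mitochondrial DNA helicase, at -0.11. The 3 pairs in the other direction were Mrpl37 (-0.65) with Cyb5rl (-0.9985), Mrpl32 (-0.27) with the proteasome gene Psma2 (-0.39) and Mrpl18 (0.04) with the chaperonin gene Tcp1 (-0.15). The widest gap was between Mrpl27 at 0.13 and Eme1, a DNA repair gene, at 1.73.

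**Figure D5:**
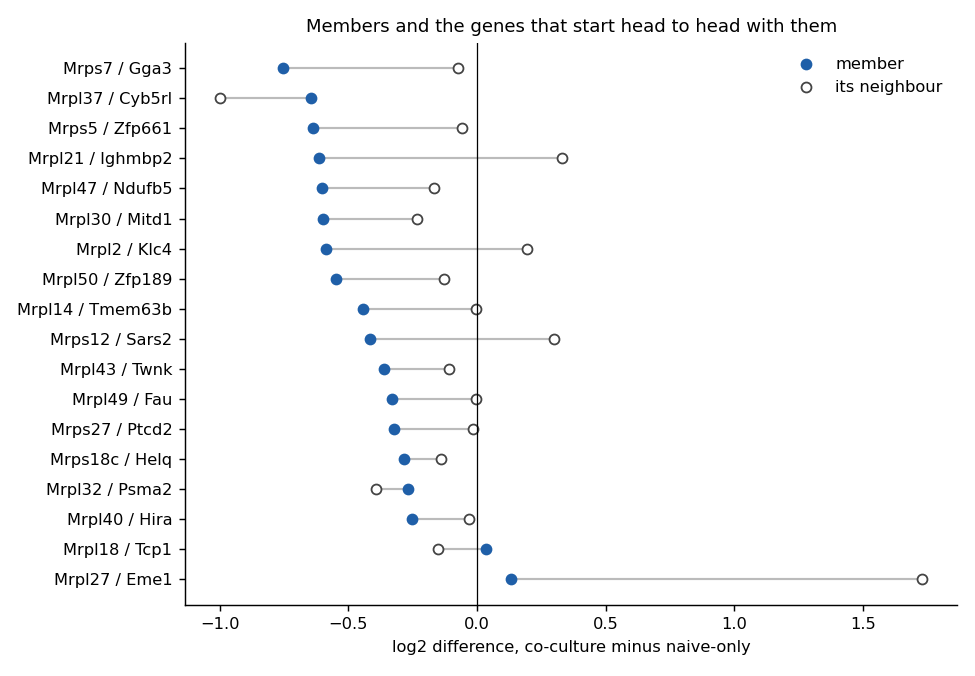
Log2 difference (co-culture minus naive-only) of 18 members (filled) and of the gene that starts head to head with each within 500 bases (open), 1 array per culture. The filled point lies left of the open one in 15 pairs; the widest gap is that of Mrpl27 (0.13) and Eme1 (1.73).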

How the data were processed

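RNA from 1 co-culture and 1 naive-only sort was amplified to cDNA (Ovation RNA Amplification System V2) and Cy3-labelled, per the labels' protocols, and amplification can alter relative levels. The deposited scanner files give spot intensity from Agilent Feature Extraction, version 10.7.1.1 per the file headers and 9.5.1.1 per the submitters' processing notes. The processed intensity is background-subtracted, per the file headers. The authors' deposited value table, a normalized linear intensity, served as an alternative. Groups came from the sample titles.

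Here the processed signal of each spot was taken as log2, averaged over a probe's spots and reduced by the log2 of the 75th percentile of the array's noncontrol probes, with no pseudocount. The brightest probe stood for a gene, and it counted as measured where well above background on both arrays. Differences are co-culture minus naive-only; counts use 2-fold and 1.5-fold. No spot was saturated (0), and 2 member spots carried an outlier mark. The number of arrays limits the precision.

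Probe accessions of 98 of the 106 member probes were found in RefSeq (GRCm38.p6), used for names. Members and lists were chosen with earlier results of these data known. Named members were the 8 lowest and 8 highest differences, the 5 highest and 5 lowest levels, genes with probes more than 1 log2 unit apart and a preset set. Outside the members they were a preset set, 5 sort markers and each list's lowest and highest gene. Of the genes this rule took, 1 is not reported here. Others named by neighbour, motif, spot number, marker list, brightness or nearness to a fold limit were chosen after their values were seen. The mitochondrially encoded mRNAs and the head-to-head neighbours were added after the data were seen. The steps were tested on simulated data. Python 3.11.15 (numpy 2.4.6, pandas 2.3.3, matplotlib 3.10.9) and R 4.3.3 with limma 3.58.1 were used.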

Additional observations from a re-analysis of the deposited data

How the results depend on the processing

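The 9 alternatives were median centring, quantile normalization, the deposited value table, normexp background correction, no filter on dim probes, only the brighter genes, leaving out marked spots, the mean over a gene's probes and every probe counted on its own. The members' median stayed between -0.33 and -0.26 under them, and between 0.23 and 0.43 below the median of all genes. The count at least 1.5-fold lower depended on the scaling. It was 10 with median centring, 10 with quantile normalization, 10 with the deposited table and 9 with normexp, where 10.4% of all genes passed. The normexp count is 11.8% of the members. The deposited table and quantile normalization gave nearly the same values, with members' medians of -0.2725 and -0.2724. The normexp setting was quantile-normalized too, so these settings are not separate scalings. Counted by probe, 25 of 104 passed, against 14.9% of all probes. The count at least 2-fold lower was 2 with the mean over probes (5.60% of all genes) and 4 of 104 counted by probe (5.40% of all probes), through the dim or second probes of genes such as Mrpl9 (-1.29 as a mean) and Mrpl15 (-1.14). No setting put a member 1.5-fold higher (0). Values of single genes also moved with the setting. With normexp, Mrpl41 went from -0.40 to -0.27 and Mrpl15 from -0.87 to -0.74. Mrps14 ran from -0.46 to 0.09 over the settings. Leaving out a replicate was not possible, since each culture had 1 array. No paired analysis was possible because each group has 1 array and the labels give no replicate numbers.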
